A study of Mus musculus with 4 samples.

Results

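Mitochondrial ribosomal protein genes encode the protein parts of the ribosome inside mitochondria. Their members were taken as every probe set whose platform gene symbol is Mrpl or Mrps followed by a number and, in some cases, a letter. The rule found 156 probe sets for 76 genes, of the 18193 genes that the platform names with a probe set of a single symbol. By symbol, 29 of the genes (52 probe sets) belong to the small subunit and 47 (104 probe sets) to the large subunit. The rule uses symbols and no measured value.

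The mitochondrial ribosome translates the few messages encoded by mitochondrial DNA, which specify core subunits of the respiratory chain and of ATP synthase. All of its proteins are encoded in the nucleus, made in the cytosol and imported. The small subunit reads the message, and the large subunit joins the amino acids and feeds the growing chain towards the inner membrane. Some of its proteins descend from those of bacterial ribosomes and others were added in the mitochondrial lineage.

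The study hybridised 4 Affymetrix mouse arrays with target made from total RNA labelled as brain, hindbrain and spinal cord. A pair of arrays, cDNA 0 and cDNA 1, carried target from a Nugen amplification kit, and the other pair, aRNA 0 and aRNA 1, carried antisense RNA made by T7-based amplification. The labels give no genotype, strain, treatment, time or age, and they do not say what the numbers mean or whether the arrays share RNA or animals. Each p-value therefore measures the spread between these arrays only, and how much of it is technical is not known.

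Levels are given as log2(intensity + 16), differences as cDNA minus aRNA on that scale, and both have 2 arrays per preparation, listed as array 0 and then array 1. Folds of dim probe sets come out too small on this scale, owing to the added 16. A call is an adjusted p under 0.05 from limma across the 22519 probe sets with a mean level of at least 8.38. Background was the 95th percentile of 27 control probe sets for Bacillus transcripts, an intensity of 212 (cDNA 0), 249 (cDNA 1), 123 (aRNA 0) and 126 (aRNA 1). All 5 neuron markers, such as Snap25 and Nefl, and all astrocyte and oligodendrocyte markers listed on the array were above it on every array. Of 5 hindbrain and spinal cord markers, Hoxa5 and Hoxb3 were above it on all 4 arrays, Hoxb5 and Hoxc6 on 1 array each, and Hoxc8 on none. Xist, the transcript of the inactive X chromosome, read 11.94 on cDNA 0, 12.51 on cDNA 1, 8.55 on aRNA 0 and 15.44 on aRNA 1. The Y-linked gene Eif2s3y read 7.92, 4.75, 13.12 and 6.79 in the same order, so aRNA array 0 stood apart from the others in both. The aRNA arrays thus differed from each other in sex-linked transcripts, and the part of sex in the results was not tested.

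Promoter sequence was read for 67 of the 76 genes, from RefSeq windows of 250 bases before and 50 after the start on GRCm38.p6. These genes lie on 17 chromosomes, with at most 11 of the 76 on any of them. Binding motifs of 3 factors known to act at genes for mitochondrial proteins were searched on both strands: NRF1 as CGCNTGCG, ETS factors (such as GABPA) as CCGGAAGT, and YY1 as AAGATGGC. A window could hold several of them. NRF1 letters were in 26.0% of the 73 windows of these genes and in 8.21% of all 32851 windows. ETS letters were in 16.4% against 3.89%, and YY1 letters in 16.4% against 2.75%. At least 1 of the 3 was in 49.3% of the windows of these genes and in 13.6% of all windows. The median GC content was 58.7% against 52.7%, and the part of base composition in these shares was not tested.

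The windows below are shown because they hold these letters at genes whose intensity differed between the preparations in either direction or in neither. Capitals mark the motif or its reverse complement, and each run reads 5′ to 3′ on the gene's own strand.
Mrpl10: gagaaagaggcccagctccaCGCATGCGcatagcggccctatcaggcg
Mrpl22: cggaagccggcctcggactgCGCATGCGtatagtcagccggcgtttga
Mrpl45: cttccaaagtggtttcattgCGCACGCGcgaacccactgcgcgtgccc
Mrpl44: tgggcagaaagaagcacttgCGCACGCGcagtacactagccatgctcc
Mrpl32: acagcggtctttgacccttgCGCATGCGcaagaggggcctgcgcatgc
Mrps18b: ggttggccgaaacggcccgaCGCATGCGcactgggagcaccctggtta
Mrpl27: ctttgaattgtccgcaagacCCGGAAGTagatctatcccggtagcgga
Mrpl51: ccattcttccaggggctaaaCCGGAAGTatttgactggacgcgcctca
Mrps11: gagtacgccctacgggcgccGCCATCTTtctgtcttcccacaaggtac
The first 6 hold NRF1 letters: Mrpl10 at chr11:97041427-97041474 (plus strand), Mrpl22 at chr11:58171612-58171659 (plus), Mrpl45 at chr11:97315659-97315706 (plus), Mrpl44 at chr1:79775964-79776011 (plus), Mrpl32 at chr13:14613096-14613143 (minus) and Mrps18b at chr17:35916637-35916684 (minus). Mrpl27 at chr11:94653716-94653763 (plus) and Mrpl51 at chr6:125192090-125192137 (plus) hold ETS letters, and Mrps11 at chr7:78783004-78783051 (plus) holds YY1 letters. The motif began 135 bases before the start in Mrpl10, 32 in Mrpl22, 37 in Mrpl45, 34 in Mrpl44 and 224 in Mrps18b.

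Start sites back to back on opposite strands were also frequent. The window of 23 of the 67 genes (34.3%) overlapped a window of another gene on the other strand, against 11.9% of all 27025 genes with a window. Mrps11, of the small subunit, and Mrpl46, of the large subunit, overlapped each other in this way. Their differences between preparations were 0.60 ± 0.29 (SE), which missed the threshold, and -0.92 ± 0.24, which passed it (adjusted p = 0.0126, limma).

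**Figure D1:**
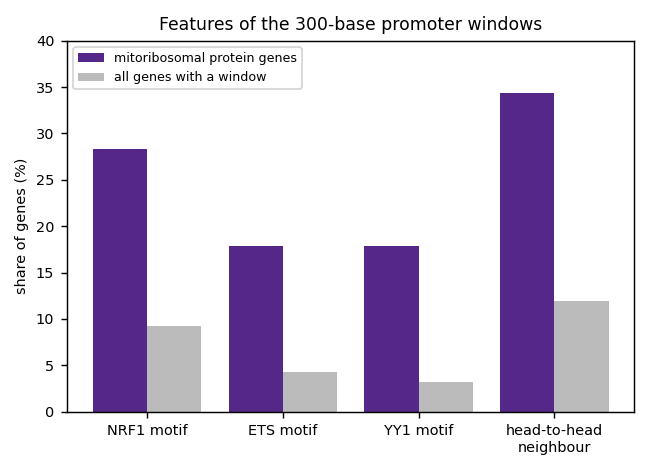
Bars give the share of genes, in percent from 0, whose promoter window holds each motif or overlaps a window on the other strand, for the mitochondrial ribosomal protein genes with a window (67, dark) and for all genes with a window (27025, light). The dark bars stand at 28.4% for NRF1, 17.9% for ETS and for YY1, and 34.3% for a head-to-head neighbour, each above the light bar beside it.

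Mitochondrial ribosomal protein genes were bright on all 4 arrays. With 1 probe set per gene, the brightest of those tested, none of the 76 genes fell under background on any array. Their median level was 12.78 (cDNA 0), 12.66 (cDNA 1), 13.33 (aRNA 0) and 13.24 (aRNA 1), where the 11945 genes tested had medians of 11.57, 11.47, 11.50 and 11.52. The range was 9.58 to 15.77 on cDNA array 0 and 10.55 to 15.82 on aRNA array 0. Brightness also depends on the probes, so the order of levels given next is that of probe sets and says nothing of which transcript was more abundant.

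The 5 brightest probe sets were those of Mrpl41, Mrpl51, Mrpl44, Mrpl39 and Mrpl11. Mrpl41 read 15.77 and 15.71 on cDNA and 15.50 and 15.61 on aRNA, a difference of 0.19 ± 0.17 (SE) that missed the threshold (adjusted p = 0.405, limma). Mrpl51 read 15.19 and 15.08 on cDNA and 15.82 and 15.69 on aRNA. Mrpl39 read 14.24 and 14.33 on cDNA and 15.61 and 15.76 on aRNA, and was called lower on cDNA.

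The 5 dimmest of the 76 probe sets kept were those of Mrpl14, Mrps5, Mrpl54, Mrpl37 and Mrps35. Mrpl14 read 9.58 on both cDNA arrays, 11.01 on aRNA 0 and 10.77 on aRNA 1, above background on each. It was called lower on cDNA, as was Mrps5, while Mrpl54 (-0.58 ± 0.33), Mrpl37 (0.64 ± 0.36) and Mrps35 (0.42 ± 0.32) were not called.

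Of the 156 probe sets, 132 were tested and 24, from 20 genes, were too dim on average for the test. Every one of the 76 genes kept at least 1 tested probe set. Of the untested probe sets, 23 lay under background on at least 1 array and 3 on all 4.

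Across the 76 genes, cDNA intensity was lower more often than higher. With 1 probe set per gene, 32 genes (42.1%) were called lower on cDNA, where 22.9% of all 11945 genes were, and 11 (14.5%) were called higher, where 21.9% of all genes were; 33 were called in neither direction. The median difference was -0.42 against -0.06 over all genes. A called difference of at least 1 was found for 23 genes lower on cDNA and 7 higher, against 2270 and 2232 of all 11945 genes. Of the 23 lower ones 19 were of the 47 large subunit genes and 4 of the 29 small subunit genes, and of the 7 higher ones 4 and 3. Called or not, a difference of -1 or less was found for 40.4% of large subunit genes. It was found for 13.8% of small subunit genes, below the 21.6% of all genes. Both cDNA arrays lay below both aRNA arrays for 40 of the 76 genes (all genes 39.0%) and above them for 19 (all genes 35.7%), and for 17 the arrays overlapped. Over probe sets, 46 of 132 were called lower (all probe sets 22.9%) and 22 higher (20.2%).

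Among the members, lower calls outnumbered higher ones in every alternative run, with counts that varied. Counts from such runs, here and below, are given without the share of all genes in the same run. They therefore do not compare the members with all genes. Leaving out cDNA array 1 left 7 genes higher and 25 lower, and leaving out aRNA array 0, the array with the unlike sex-linked transcripts, left 9 and 22 and brought the probe sets called lower to 29. Markers of other cell types differed between the preparations too. Of 6 choroid plexus markers 3 were tested, and all 3 were called higher on cDNA. None of the 6 was at 0, and 3 of them on aRNA 0 and 4 on aRNA 1 were under background. Their intensities summed to 104335 and 176896 on cDNA and to 1366 and 1107 on aRNA, of which Ttr, the transthyretin gene, made 101665 and 163819 on cDNA and 269 and 618 on aRNA. Folr1, not tested, had a mean difference of -1.16, with 4.84 and 9.32 on cDNA and 8.04 and 8.45 on aRNA. Its arrays overlapped, and its cDNA array 0 was under background. Of 6 meninges markers, 4 were called higher and 1 lower, with sums of 53790 and 30207 on cDNA and 42562 and 22987 on aRNA. The one called lower, Dcn, read 13.03 and 12.05 on cDNA and 15.28 and 14.26 on aRNA. It was the brightest of the 6 on both aRNA arrays and weighs most in those sums. The part of these markers in the result was not tested. In such bulk tissue, fewer cells of a type, less RNA per cell and the unlike amplification of the preparations cannot be told apart.

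**Figure D2:**
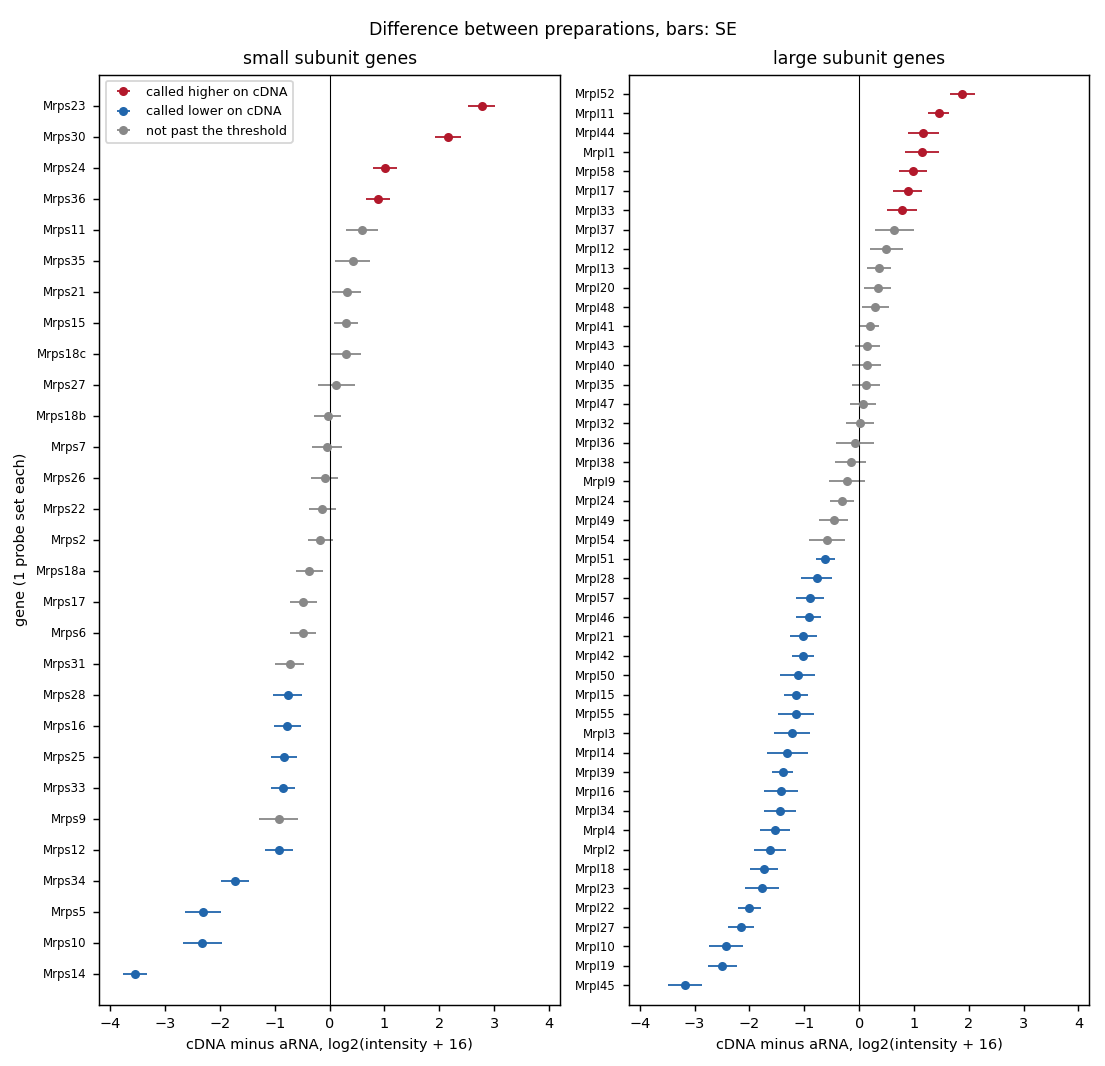
Each point is the difference of 1 gene, cDNA minus aRNA on the log2(intensity + 16) scale, with its standard error from limma (2 arrays per preparation), small subunit genes on the left and large subunit genes on the right. Of the small subunit genes 9 were called lower (blue) and 4 higher (red), and of the large subunit genes 23 were called lower and 7 higher.

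By subunit, the median difference was -0.17 over the 29 small subunit genes and -0.58 over the 47 large subunit genes. In the small subunit 9 genes (31.0%) were called lower, 4 (13.8%) higher and 16 neither; by symbol these include Mrps30 (called higher) and Mrps18a (not called), whose products sit in the large subunit in solved structures. In the large subunit 23 (48.9%) were called lower, 7 (14.9%) higher and 17 neither. With only Mrps30 and Mrps18a moved to the large subunit, 9 of 27 small subunit genes were lower and 3 higher (median -0.17). The other genes stayed where their symbols put them, and whether each product is part of the ribosome was not checked. Of the 49 large subunit genes, 23 were then lower and 8 higher (median -0.46). The difference between the subunits was not tested. Without aRNA array 1 the small subunit had 5 lower calls, and without cDNA array 1 the large subunit had 4 higher ones.

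**Figure D3:**
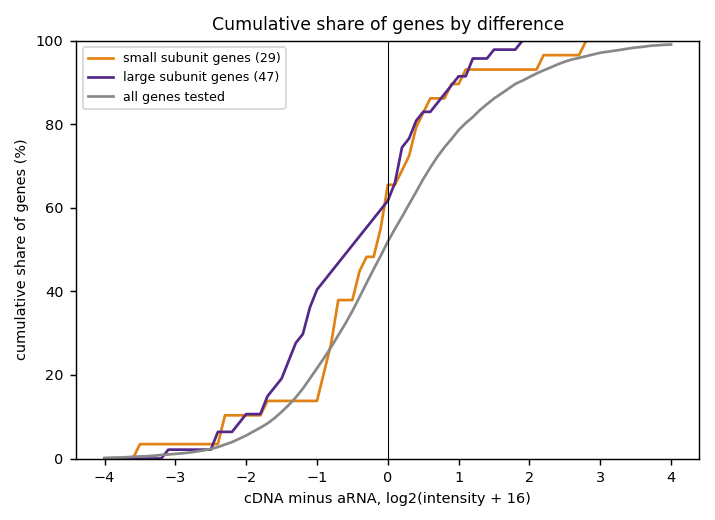
Lines give the cumulative share of genes, in percent, at or under each difference (cDNA minus aRNA, log2 scale) for small subunit genes, large subunit genes and all genes tested. At 0 both subunits stand above the line of all genes. At -1 the large subunit line stands at 40.4%, above all genes (21.6%), and the small subunit line at 13.8%, below them.

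The proteins with a bacterial counterpart numbered 47. Of their genes 22 (46.8%) were called lower, 5 (10.6%) higher and 20 neither, with a median of -0.49. The 29 genes not listed with a bacterial counterpart had 10 lower and 6 higher calls (34.5% and 20.7%) and a median of -0.13. Over all genes 22.9% were called lower and 21.9% higher. The lowest median of the 4 combinations was that of large subunit genes with a bacterial counterpart, at -1.02, with 16 of 29 called lower. This split was not tested either.

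Mrps14 of the small subunit head had the most negative difference of the 76 genes. It read 11.87 (cDNA 0), 11.77 (cDNA 1), 15.30 (aRNA 0) and 15.42 (aRNA 1). Both aRNA arrays were far above both cDNA arrays, and the intensity was 11.7-fold higher on aRNA (difference -3.55 ± 0.22 SE, limma adjusted p = 1.96e-05).

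Mrps5 and Mrps10 followed in the small subunit. Mrps5, a protein of the path by which the message enters, read 9.71 and 9.56 on cDNA and 12.05 and 11.84 on aRNA, a 4.96-fold higher intensity on aRNA. Mrps10 read 11.16 on both cDNA arrays and 13.99 and 12.98 on aRNA, a difference of -2.32 ± 0.35 (SE). Both genes were picked for a large difference with arrays that did not overlap, and the spread of Mrps10 lay between its aRNA arrays.

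In the large subunit, Mrpl45, which helps to hold the ribosome at the inner membrane, read 10.01 and 9.73 on cDNA and 13.22 and 12.89 on aRNA. That was 9.07-fold higher on aRNA (-3.18 ± 0.31 SE, limma adjusted p = 0.000131). Mrpl10, which carries the factor-binding stalk, read 10.30 and 10.67 on cDNA and 13.08 and 12.74 on aRNA, 5.39-fold higher on aRNA. The windows of both hold NRF1 letters.

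Mrpl19 read 11.07 and 11.04 on cDNA and 13.47 and 13.63 on aRNA, 5.63-fold higher on aRNA. Mrpl27, which lies near the site of peptide bond formation, read 12.63 and 12.34 on cDNA and 14.74 and 14.54 on aRNA, 4.45-fold higher. Mrpl22, a protein of the exit tunnel, read 13.24 and 13.14 on cDNA and 15.22 and 15.17 on aRNA, 4-fold higher. The limma adjusted p-values of these 3 genes were 0.000179, 0.000202 and 0.000153.

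The genes higher on cDNA were fewer. Mrps23 had the most positive difference: its brightest probe set read 14.90 and 14.59 on cDNA and 12.08 and 11.86 on aRNA, 6.85-fold higher on cDNA (2.78 ± 0.24 SE, limma adjusted p = 7.77e-05). Mrps30, named for the small subunit but placed in the large one in solved structures, read 14.14 and 13.96 on cDNA and 11.87 and 11.91 on aRNA, 4.47-fold higher on cDNA. Both were picked for a large difference with arrays that did not overlap.

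Mrpl52 read 15.55 and 15.41 on cDNA and 13.35 and 13.85 on aRNA, 3.68-fold higher on cDNA. Mrpl11, at the base of the stalk, read 15.72 and 15.56 on cDNA and 14.30 and 14.07 on aRNA, 2.73-fold higher on cDNA. These differences were 1.88 ± 0.23 and 1.45 ± 0.20 (SE).

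Smaller positive differences were found for 4 further genes. Mrpl44, which has a ribonuclease III-like fold, read 15.35 and 16.03 on cDNA and 14.22 and 14.81 on aRNA, so array 1 was brighter than array 0 in each preparation. Mrpl1, of the mobile stalk at the exit site, read 11.97 and 12.17 on cDNA and 11.10 and 10.76 on aRNA. Mrps24 read 14.33 and 14.29 on cDNA and 13.29 and 13.31 on aRNA.

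Mrpl58, a peptidyl-tRNA hydrolase that became part of the ribosome, read 13.51 and 13.20 on cDNA and 12.33 and 12.41 on aRNA. The folds of these 4 genes were 2.25, 2.21, 2.02 and 1.98, higher on cDNA, and their limma adjusted p-values were 0.00975, 0.0164, 0.00511 and 0.0130. Without cDNA array 1 the calls of Mrpl44 (adjusted p = 0.0730) and Mrpl1 (0.0590) were lost in limma, as were that of Mrpl1 without aRNA array 1 (0.0795) and that of Mrpl58 without cDNA array 0 (0.0776).

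**Figure D4:**
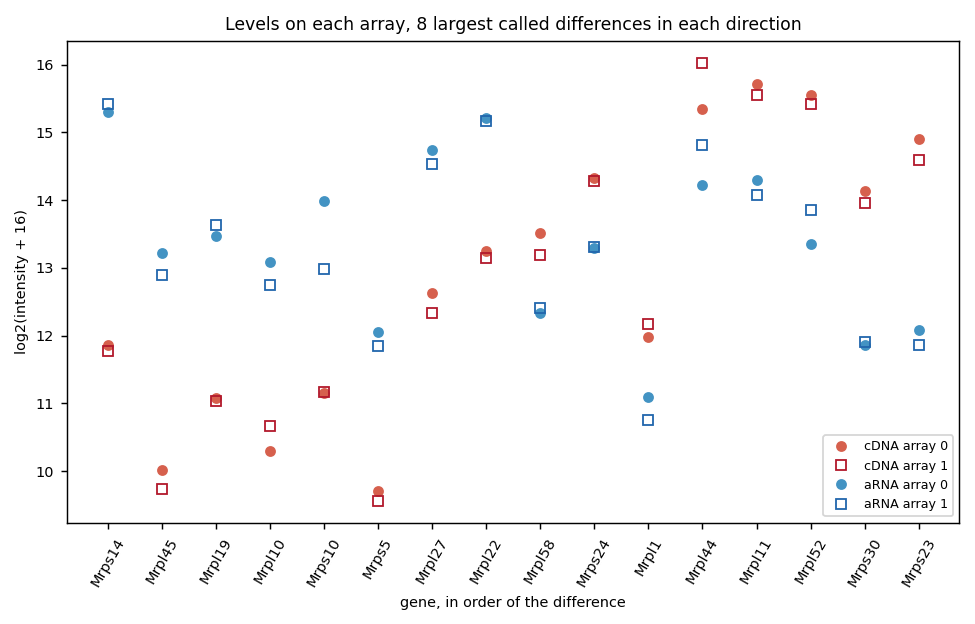
Points give the level of each gene on each array as log2(intensity + 16), circles for arrays numbered 0 and squares for arrays numbered 1, red for cDNA and blue for aRNA, with genes in order of the difference. The genes were chosen for arrays that do not overlap between preparations, and the widest gap is that of Mrps14, at 11.87 and 11.77 on cDNA and 15.30 and 15.42 on aRNA.

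The 3 Mrps18 genes descend from the gene of a single bacterial protein, and none was called. Mrps18a, whose product sits in the large subunit in solved structures, read 12.59 and 12.49 on cDNA and 12.90 and 12.92 on aRNA (-0.37 ± 0.25 SE). Mrps18b read 12.84 and 12.80 on cDNA and 12.71 and 13.00 on aRNA (-0.04 ± 0.25). Mrps18c read 13.83 and 14.11 on cDNA and 14.01 and 13.34 on aRNA (0.30 ± 0.27). The arrays overlapped for Mrps18b and Mrps18c.

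The smallest differences of the 76 genes were those of Mrpl32 (0.01 ± 0.26 SE), Mrps18b and Mrps7 (-0.04 ± 0.27). Mrpl32, whose precursor is cut by the m-AAA protease before it joins the ribosome, read 12.45 and 12.56 on cDNA and 12.39 and 12.59 on aRNA. Mrps7 read 13.01 and 12.50 on cDNA and 12.85 and 12.74 on aRNA. An adjusted p over the threshold does not show that the preparations gave equal levels.

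Several probe sets of one gene often differed in what they showed. Of the 76 genes, 33 had more than 1 probe set tested and 43 had 1. In 17 of the 33 (51.5%) all differences had one sign, against 44.8% of the 5034 such genes over the whole array. Of genes with exactly 2 tested probe sets, 64.7% of 17 members and 55.6% of 3105 genes had one sign. The median range between the probe sets of a gene was 1.38 for members and 1.53 for all genes. Control probe sets for beta-actin read higher at the 3′ end than at the 5′ end, by 4.07 (cDNA 0), 3.62 (cDNA 1), 3.13 (aRNA 0) and 3.76 (aRNA 1). For Gapdh these gaps were 3.38, 2.05, 2.39 and 3.22 in the same order. Their part in the disagreement between probe sets was not tested.

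Of 16 member genes with more than 1 probe set called, 8 had all calls lower, 4 had all calls higher and 4 had calls in opposite directions. Opposite calls were thus found in 25% of such members and in 45.4% of the 1688 such genes over the array. All calls were lower for Mrps14, Mrps5, Mrpl3, Mrpl15, Mrpl19, Mrpl27, Mrpl28 and Mrpl39, and all were higher for Mrpl1, Mrpl11, Mrpl13 and Mrpl52. For Mrpl52 all 4 probe sets were called, with differences from 1.84 to 2.55. For Mrps14 all 3 were called, at -3.55, -2.48 and -0.85.

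The widest disagreement was in Mrpl34, a small protein of the large subunit. Its brighter probe set over the 4 arrays read 10.84 and 10.89 on cDNA and 12.23 and 12.38 on aRNA. The other read 12.57 and 12.48 on cDNA and 7.74 and 8.26 on aRNA. The first was 2.71-fold higher on aRNA and the second 23.0-fold higher on cDNA, with limma adjusted p-values of 0.00438 and 6.90e-05.

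Mrpl51 had differences of -0.62, 0.40 and 2.62, of which the first and the last were called. Its called probe set in the positive direction read 11.12 and 11.81 on cDNA and 9.65 and 8.03 on aRNA. Mrps25 had -1.37, -0.83 and 1.36, all called. Mrps24 had 1.01 in the probe set described above and -0.80 in the other, which read 11.83 and 12.14 on cDNA and 12.89 and 12.68 on aRNA. In these genes the direction depends on the probe set read.

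Mrps23 and Mrpl11 also rested on particular probe sets. The 2 other probe sets of Mrps23 gave 0.30 ± 0.34 and -0.59 ± 0.28 (SE), neither called. Of the other probe sets of Mrpl11, 1 gave 3.62 ± 0.22, 12.3-fold higher on cDNA, and 1 gave -0.61 ± 0.28 and was not called. With the mean of all probe sets of a gene, which left 74 genes tested, 6 genes were called higher and 26 lower; Mrpl44 (0.19, adjusted p = 0.536), Mrps24 (0.11, 0.716), Mrpl1 (0.63, 0.333), Mrpl58 (0.75, 0.0897) and Mrps10 (-1.45, 0.0618) were no longer called in limma.

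**Figure D5:**
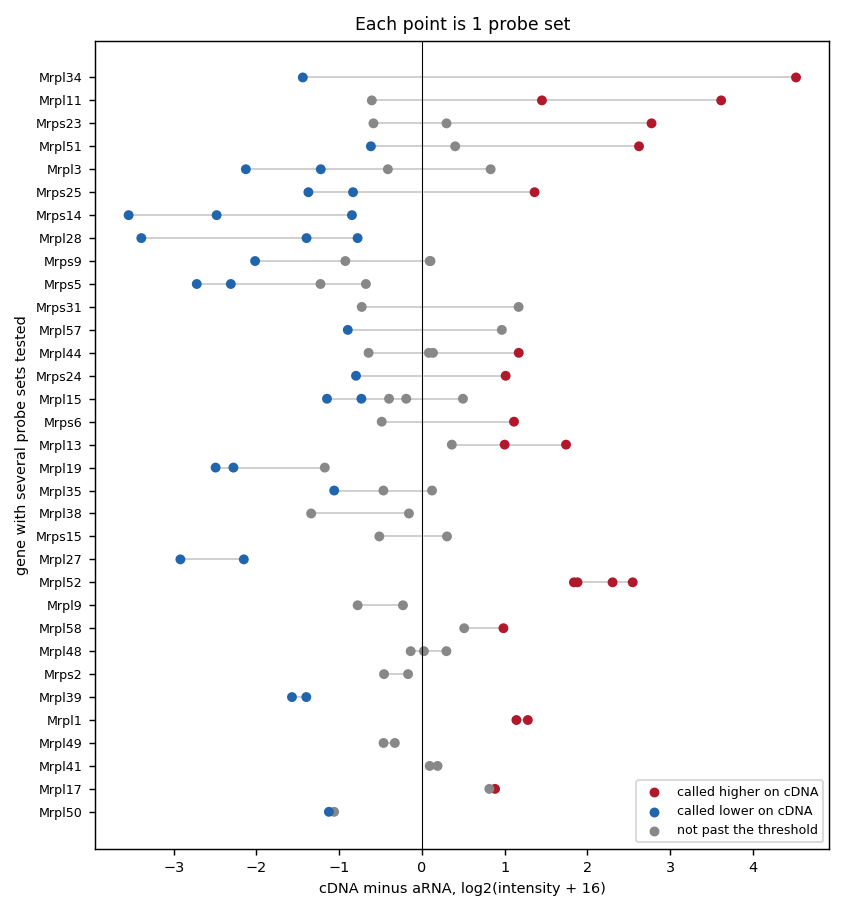
Each point is 1 tested probe set of the 33 genes with several, placed by its difference (cDNA minus aRNA, log2 scale), with a grey line from the lowest to the highest of the gene. Points of 17 genes all lie on one side of 0, and Mrpl34 spans from -1.44 to 4.52.

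Name endings describe how the probe set was designed. Of 80 tested member probe sets ending in plain _at, 31 (38.8%) were called lower and 10 (12.5%) higher, against 22.0% and 19.8% of all such probe sets. Of 30 ending in _a_at, 8 were lower and 6 higher (all such 27.3% and 17.4%), and of 9 ending in _s_at, 3 were lower and 1 higher (25.3% and 22.6%). Of 13 ending in _x_at, whose probes can match more than 1 transcript, 4 were lower and 5 higher (21.8% and 27.6%). The member shares of _a_at probe sets, 26.7% lower and 20% higher, were near those of the whole array.

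The platform also lists the accession on which each probe set was designed. The 31 member probe sets on RefSeq transcripts had 15 lower and 2 higher calls (48.4% and 6.45%), against 28.0% and 17.2% of all such probe sets. The 12 on BC accessions had 5 lower and 1 higher (all such 27.0% and 17.4%), the 16 on AK accessions 4 and 4 (23.9% and 16.4%), and the 73 on other records 22 and 15 (21.2% and 21.8%). These are counts only.

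The members were also split into 3 groups by the mean level of the probe set kept. In the middle group 10 of 25 genes (40%) were called lower and 4 (16%) higher, with a median of -0.37. In that range of levels 30.5% of all genes were called lower and 27.6% higher. Of the 26 dimmest genes 13 (50%) were called lower and 2 (7.69%) higher, with a median of -0.74, where 24.7% and 21.8% of all genes in the same range of levels were. Of the 25 brightest, 9 (36%) were called lower and 5 (20%) higher, with a median of 0.07, where 31.1% and 28.2% of all genes in that range were. Pearson's r between mean level and difference was 0.23 across the 76 genes and -0.04 across all genes, which share the same 4 arrays. No trend with level was tested.

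Arrays of one preparation resembled each other closely in these genes. Across the 76 genes, r was 0.970 within cDNA and 0.962 within aRNA, and it averaged 0.580 ± 0.017 (SD over 4 pairs) between arrays of unlike preparation. Over all genes these values were 0.948, 0.958 and 0.748 ± 0.008. The gap between 0.580 and 0.748 is found with 1 probe set per gene only: over all tested probe sets the average between preparations was 0.718 for the members and 0.723 for the whole array. The median absolute difference was 0.22 within each preparation and 0.84 between preparations. Over all genes it was 0.34 within cDNA, 0.31 within aRNA and 0.85 between preparations, so between preparations the members were near all genes. Genes are not independent replicates, so these values are descriptions of the 4 arrays.

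The numbers 0 and 1 carried no call among these genes. Of the 132 tested probe sets 0 were called for number 1 against number 0 in limma with preparation in the model, where 0.0622% (14) of all 22519 were. At an unadjusted p under 0.05 there were 7 (5.30%) against 5.86% of all. The smallest adjusted p of a member was 0.612, for the bright probe set of Mrpl44, which was 0.68 higher on number 1 in cDNA and 0.60 higher in aRNA. That fit has 1 residual degree of freedom.

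Other genes of mitochondrial translation were counted from the same fit, in which 22.9% of all genes were called lower and 21.9% higher. Of 4 mitoribosome proteins with other symbols, 2 were called lower and 0 higher: Gadd45gip1, a large subunit protein, at -1.47 ± 0.34 (SE), and Chchd1, a small subunit protein, at -1.45 ± 0.23. Chchd1 read 12.87 and 13.19 on cDNA and 14.60 and 14.36 on aRNA. The other pair was not called, and without aRNA array 0 a single one of the 4 was.

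Of 16 translation factors and peptide handling genes, 4 (25%) were called lower, near the 22.9% of all genes, and 0 higher, with a median of -0.15. Tsfm, elongation factor Ts, read 8.57 and 7.88 on cDNA and 11.21 and 11.10 on aRNA. As cDNA array 1 was under background, its intensity was at least 7.19-fold higher on aRNA. Guf1, a translational GTPase, differed by -1.53, Lrpprc, which stabilises mitochondrial messages, by -1.26, and Mrrf, the ribosome recycling factor, by -1.11.

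Of 26 assembly and ribosomal RNA factors, 10 were called lower and 6 higher, with a median of -0.43. Rbfa, a ribosome binding factor, differed by -1.68 and Rcc1l by -1.47, while Mrm1, which methylates the large ribosomal RNA, differed by 1.67 and Ybey by 1.57. Without aRNA array 0 these counts were 2 and 3, without cDNA array 1 they were 5 and 3, and without aRNA array 1 there were 4 lower calls.

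Of 17 genes of mitochondrial aminoacyl-tRNA formation, 7 were called lower and 3 higher, with a median of -0.41. Qrsl1, which is a subunit of an amidotransferase and not a synthetase, differed by -2.10, Nars2 by -1.93, Fars2 by -1.73 and Aars2 by 1.62. Without aRNA array 0 there were 4 lower calls and 1 higher, and leaving out aRNA array 1 or cDNA array 1 also left 4 lower. Genes for proteins of the cytosolic ribosome had 10 lower and 9 higher calls among 45, with a median difference of -0.00059 as deposited, 0.02 after quantile normalization and -0.15 after median centring.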

How the data were processed

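The authors deposited 1 intensity per probe set and array on a linear scale, per the file headers, with no detection call. Their software was not given in the sources used here. Each array had a 2% trimmed mean of 2500.02, so deposited values were already scaled and were used as they stand. They were taken as log2(intensity + 16). After 64 control probe sets were left out, 22519 of 45037 were tested with limma 3.58.1 in R 4.3.3 (lmFit, eBayes with an intensity trend, preparation only, 2 residual degrees of freedom, Benjamini-Hochberg adjustment), a script first tested on simulated data. Gene names came from the platform annotation. Members, lists and alternatives were chosen with earlier results of these data known. Named genes were the 8 largest called differences in each direction with arrays that did not overlap, the 5 highest and 5 lowest levels, genes with opposite calls, the Mrps18 genes, the 3 smallest differences, and up to 4 called members of each other list of mitochondrial translation. Genes with any other value shown were chosen after values were seen. A fold is given as at least a value where an array of the lower preparation was under background. With 2 arrays against 2, an exact permutation test cannot go below p = 0.333, so none was used.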

Additional observations from a re-analysis of the deposited data

How the results depend on the processing

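The median difference of the 76 genes stayed negative in every alternative run, from -0.58 to -0.33. The counts that follow are of these genes only, without the share of all genes in the same run. Without the intensity trend 7 genes were called higher and 22 lower, and with the mean of all probe sets of a gene 6 and 26. Leaving out 1 array at a time gave 7 to 9 higher and 22 to 25 lower, and kept 30 to 33 of the 43 calls. Without the trend the small subunit had 4 lower calls, and with the gene means translation factors had 2 lower and 1 higher call and assembly factors 3 higher. With the number as a replicate block 10 were higher and 32 lower; deviations of same-numbered arrays correlated at 0.04, so the numbers were not shown to pair the arrays. Median centring moved the median of all genes to -0.21 and that of the members to -0.57. No call changed direction. For number 1 against 0 there were 0 calls in every alternative run. Detection is limited by signal over background: 5 tested probe sets were under background on at least 1 array.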

Other observations

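The probe sets whose platform symbol joins a mitochondrial ribosomal protein gene to a neighbour were outside the rule. The probe set listed for Nme3 and Mrps34 read 8.09 and 9.73 on cDNA and 11.50 and 10.77 on aRNA, a difference of -2.22 ± 0.57 (SE, limma adjusted p = 0.0132). The one listed for Ccdc142 and Mrpl53 read 11.23 and 11.42 on cDNA and 12.59 and 12.58 on aRNA, -1.26 ± 0.28 (adjusted p = 0.00641, limma). The brighter one listed for Gm6238 and Mrpl30 differed by 0.33 ± 0.20 and was not called.

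Genes with and without a motif in the promoter window were called in both directions. With NRF1 letters, 6 of 19 were called lower and 2 higher (median -0.09), and without them 21 of 48 were lower and 9 higher (median -0.42). With ETS letters 4 of 12 were lower and 2 higher, and without them 23 of 55 were lower and 9 higher. With YY1 letters 2 of 12 were lower and 1 higher, and without them 25 of 55 were lower and 10 higher. Over all genes 22.9% were called lower and 21.9% higher. None of these splits was tested.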
